A study of Homo sapiens with 36 samples.

Results

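The 10 genes described here are immediate early genes and relatives that encode subunits of the transcription factor AP-1 or factors induced with it: FOS, FOSB, FOSL1, FOSL2, JUN, JUNB, JUND, EGR1, ATF3 and IER2. They were chosen by symbol from the 27852 gene symbols of the count table, with their values in PCa cells co-cultured with RAW264.7 cells and in RANKL mono-culture already known. The comparison of those cultures is therefore given as a description of these genes, with no test.

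RNA was measured in 36 cultures of 4 human PCa cell lines, each a single established line. C4-2 and C4-2B, which the labels class as osteoblastic (BPCa), and DU145 and 22Rv1, which they class as osteolytic (LPCa), were each grown in 4 ways: alone without RANKL (3 mono-cultures), with MG63 cells without RANKL (2 co-cultures), alone with 50 ng/mL RANKL (2 mono-cultures), and next to RAW264.7 cells, also at 50 ng/mL RANKL (2 co-cultures). MG63 cells come from a human osteosarcoma and stand in for OBs here. RAW264.7 cells are mouse macrophages that become OCs under RANKL, and the RANKL given was the mouse protein. A filter separated the partner cells from the PCa cells, whose RNA was taken on day 5. The labels do not say that replicates came from separate passages, so p-values measure the spread between these samples, which may be technical.

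AP-1 is a dimer of a JUN protein with a FOS or ATF protein that binds DNA through paired leucine zippers. Growth factors, cytokines and stress reach its genes within minutes through MAP kinases, which act on serum response factor, its ETS partners and CREB at the promoters, without any need for new protein synthesis. The transcripts of FOS, FOSB and EGR1 decay quickly after such a pulse, whereas JUND and the FOS-like genes FOSL1 and FOSL2 can be expressed steadily in cancer cells.

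The promoters of FOS, JUNB and EGR1 are shown because FOS had the highest change with RAW264.7 cells, JUNB rose with MG63 cells in every line, and EGR1 differed most between BPCa and LPCa. Each is the 250 bases before the RefSeq start on the plus strand of GRCh38.p14, at chr14:75278578-75278827 for FOS, chr19:12791236-12791485 for JUNB and chr5:138465229-138465478 for EGR1, and each belongs to the protein-coding gene of that name. Capitals mark the letters TATAAA in FOS and JUNB and the CArG boxes, the motif bound by serum response factor, in EGR1.
FOS: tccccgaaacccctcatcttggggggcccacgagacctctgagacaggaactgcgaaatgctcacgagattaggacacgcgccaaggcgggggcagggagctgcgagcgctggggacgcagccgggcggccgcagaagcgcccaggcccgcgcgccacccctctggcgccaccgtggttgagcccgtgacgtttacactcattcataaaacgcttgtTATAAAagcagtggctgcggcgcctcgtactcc
JUNB: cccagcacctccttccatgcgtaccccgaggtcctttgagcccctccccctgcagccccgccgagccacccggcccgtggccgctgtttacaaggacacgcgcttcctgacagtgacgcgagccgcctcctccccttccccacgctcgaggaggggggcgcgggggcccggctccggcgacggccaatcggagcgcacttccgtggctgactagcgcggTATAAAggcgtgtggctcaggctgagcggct
EGR1: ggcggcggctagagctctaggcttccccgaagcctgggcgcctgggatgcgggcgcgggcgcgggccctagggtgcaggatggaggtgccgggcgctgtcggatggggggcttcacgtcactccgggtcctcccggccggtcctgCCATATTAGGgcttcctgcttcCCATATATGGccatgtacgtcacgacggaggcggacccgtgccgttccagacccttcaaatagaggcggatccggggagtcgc
The motif TATAAA began 33 bases before the start of FOS and 31 bases before that of JUNB, and the CArG boxes of EGR1 began 105 and 83 bases before its start.

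Motifs were searched on both strands of 300 bases around each start, which added the 50 bases after it. Bases further away were not searched, so any motif there would be missed. Promoters were found for 9 of the 10 genes, and ATF3 had 2, which made 10 windows. TATAAA stood in 4 of these windows (FOS, FOSB, JUNB and 1 of ATF3), against 11.5% of all 35116 promoters. A CArG box stood in EGR1 alone, against 1.29% of all promoters. The cyclic AMP response element TGACGTCA was in JUND alone (1.85% of all promoters), and the AP-1 site TGACTCA was in FOSL2 alone (4.95%). The related letters TGACATCA were in JUN and in 1 window of ATF3 (2.61%). The GC box GGGCGG was in 7 windows (45% of all promoters), while the EGR site GCGTGGGCG (0.795%), the STAT site TTCCNGGAA (1.15%) and the kappaB site (9.08%) were in 0. None of the motifs marked in capitals overlapped another of these.

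The estimated counts of a gene's transcripts were summed and are given per 1e6 counts in that library (CPM). The 12 mono-cultures without RANKL held 23932472 to 36719047 counts and every other library 9593426 to 15418211, so a level of 3 counts, taken as the detection limit, was at most 0.125 CPM in the former and at most 0.313 CPM in the latter. These limits cover counting error only. Depth thus differed along with culture wherever co-cultures or RANKL mono-cultures were compared with mono-cultures without RANKL. The mono-cultures with RANKL, of like depth to the co-cultures, served as a second control. Those libraries entered the choice of the 10 genes, so differences of these genes from them are given here with no test. The epithelial keratins KRT8 and KRT18 were expressed in all 4 lines. The macrophage markers TYROBP and AIF1 were at 0 in every library. All 13 macrophage and osteoclast markers, however, summed to 70.3 to 85.6 CPM in DU145 mono-culture, where no RAW264.7 cells were present. How far RNA of these mouse cells would be counted in human transcripts was not tested.

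**Figure D1:**
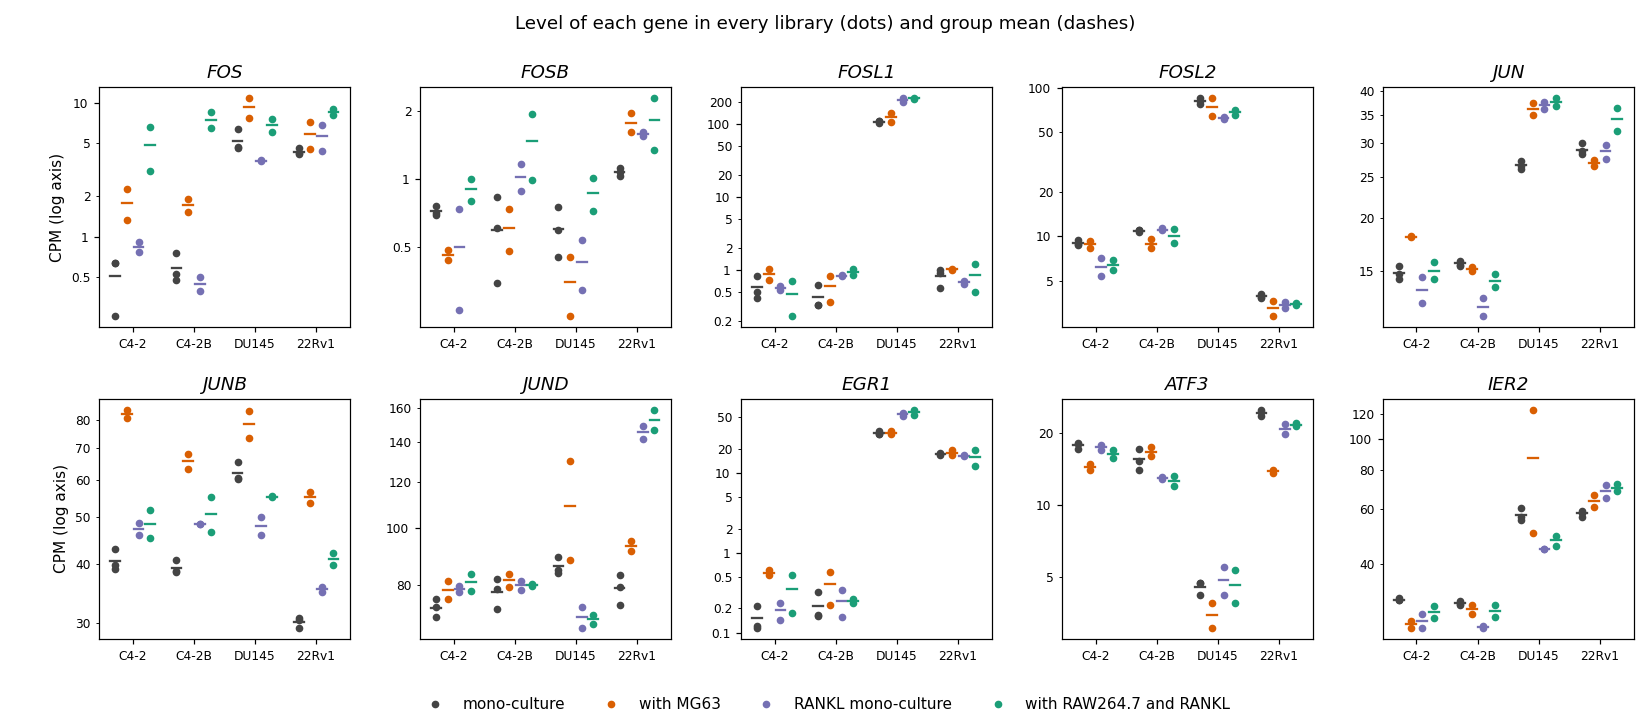
Level of each of the 10 genes in CPM (log axis, scaled separately for each gene) in every library (dots) and the group mean (dashes), for 4 cell lines on the horizontal axis and 4 cultures by color. FOS goes from below 1 CPM with RANKL alone to above 3 CPM with RAW264.7 cells in both BPCa lines, JUNB rises with MG63 cells in all 4 lines, and FOSL1 and FOSL2 stand far higher in DU145 than elsewhere.

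The first question was how the levels differed among PCa lines grown alone, a comparison other than the one the genes were chosen with. DU145 was the line with high FOSL1 and FOSL2, both LPCa lines had far more EGR1 and FOS than both BPCa lines, and ATF3 was lowest in DU145. Of the 9 genes that reached 100 counts in at least 1 of the 20 libraries without RANKL, 6 were lower in BPCa mono-cultures than in those of LPCa and 1 was higher, at an adjusted p under 0.05 (edgeR's quasi-likelihood test, Benjamini-Hochberg). Over all 13437 genes tested, 40.4% were lower and 39.4% higher by the same rule. FOSB, at no more than 36 counts in these libraries, was not tested. Each phenotype is a pair of lines, and C4-2B was derived from C4-2, so the phenotype and the particular lines cannot be told apart.

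FOSL1 and FOSL2 encode FOS-like partners of JUN proteins that lack a strong activation domain of their own. FOSL1 (chromosome 11, 65892049 to 65900573, minus strand, GRCh38) stood at 110, 109 and 103 CPM in the 3 DU145 mono-cultures. In the other lines it was between 0.404 and 0.825 CPM in C4-2, between 0.325 and 0.615 CPM in C4-2B, and between 0.564 and 0.999 CPM in 22Rv1. DU145 thus exceeded every other line without overlap, by 134-fold over 22Rv1, with a log2 difference of 7.07 ± 0.20 (SE) from 22Rv1 (edgeR, adjusted p = 8.32e-15) and of -7.48 ± 0.20 for C4-2 against DU145 (adjusted p = 5.19e-15). The remaining lines lay close together for FOSL1, since C4-2B against 22Rv1 gave -0.77 ± 0.34 (adjusted p = 0.0528).

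FOSL2 stood at 77.1, 80.6 and 85 CPM in DU145 mono-culture. It was 10.7 to 11.1 CPM in C4-2B, 8.7 to 9.44 CPM in C4-2 and 3.88 to 4.07 CPM in 22Rv1. The order DU145, C4-2B, C4-2, 22Rv1 held in every library, and all 6 pairs of lines differed by edgeR, of which C4-2 against C4-2B was the closest (log2 -0.33 ± 0.10, adjusted p = 0.0306). It was also the only one of the 9 tested genes to differ between C4-2 and C4-2B, where 13.6% of all genes passed. Between C4-2 and DU145, and likewise between C4-2B and DU145, 8 of the 9 genes differed, against 78.3% and 79.0% of all genes, and between either BPCa line and 22Rv1 7 differed, against 72.0% for C4-2 and 72.5% for C4-2B. DU145 and 22Rv1 differed in 5 of the 9, against 79.6% of all genes.

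EGR1, a zinc finger factor that serum response factor induces through CArG boxes like those printed above, was at 30.3, 30.6 and 33.6 CPM in DU145 and at 16.9, 17.1 and 17.7 CPM in 22Rv1. In C4-2 it was at 0.114, 0.214 and 0.121 CPM, and in C4-2B at 0.161, 0.318 and 0.164 CPM, close to the detection limit. Every LPCa library therefore lay far above every BPCa library. The log2 difference of BPCa from LPCa was -6.93 ± 0.14 (edgeR, adjusted p = 9.47e-17), DU145 exceeded 22Rv1 by 0.89 ± 0.11 (adjusted p = 1.62e-06), and C4-2 and C4-2B did not differ past the threshold (-0.51 ± 0.40, adjusted p = 0.57).

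FOS, the founding partner of JUN, was also higher in the LPCa lines. It stood at 4.69, 4.59 and 6.34 CPM in DU145 and at 4.26, 4.16 and 4.59 CPM in 22Rv1, which overlapped (log2 0.28 ± 0.25, adjusted p = 0.317). It stood at 0.255, 0.632 and 0.639 CPM in C4-2 and at 0.472, 0.759 and 0.524 CPM in C4-2B. BPCa was below LPCa by a log2 difference of -3.06 ± 0.22 (edgeR, adjusted p = 1.33e-09). FOSB, which encodes a close relative of FOS, was low in all lines, with means of 0.717 ± 0.0352 CPM in C4-2, 0.593 ± 0.242 in C4-2B, 0.597 ± 0.15 in DU145 and 1.07 ± 0.0423 in 22Rv1 (SD, n = 3).

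The JUN genes, which encode the obligate partner in an AP-1 dimer, differed less. JUN was at 14.8 ± 0.552 CPM in C4-2 and 15.6 ± 0.214 in C4-2B, against 26.6 ± 0.599 in DU145 and 29 ± 0.9 in 22Rv1 (SD, n = 3), a log2 difference of -0.81 ± 0.04 for BPCa against LPCa (adjusted p = 5.68e-12). JUNB differed between single lines, from 30.2 ± 0.761 CPM in 22Rv1 to 61.9 ± 2.86 in DU145, but not between the phenotypes (-0.05 ± 0.04, adjusted p = 0.25). JUND was the most even of the genes tested, between 70.5 and 89.2 CPM in all 12 mono-cultures, and none of the 6 pairs of lines passed the test by edgeR (adjusted p from 0.0778 to 0.593, unadjusted p from 0.0628 to 0.547).

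ATF3, a stress-induced ATF factor that can pair with JUN, had its lowest levels in DU145, at 4.23, 4.73 and 4.74 CPM. It was at 24.7, 23.6 and 25.1 CPM in 22Rv1, and at 17.9 ± 0.547 CPM in C4-2 and 15.6 ± 1.58 in C4-2B (SD, n = 3). The average for BPCa was therefore higher than that for LPCa (log2 0.72 ± 0.06, adjusted p = 1.58e-08) although 22Rv1 exceeded both BPCa lines (C4-2 against 22Rv1 -0.41 ± 0.08, adjusted p = 0.000392). IER2, an immediate early gene of less defined function, was at 30.9 ± 0.31 and 30.1 ± 0.362 CPM in C4-2 and C4-2B and at 57.6 ± 2.69 and 58.1 ± 1.3 CPM in DU145 and 22Rv1 (log2 -0.86 ± 0.14 for BPCa against LPCa, adjusted p = 2.17e-05).

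**Figure D2:**
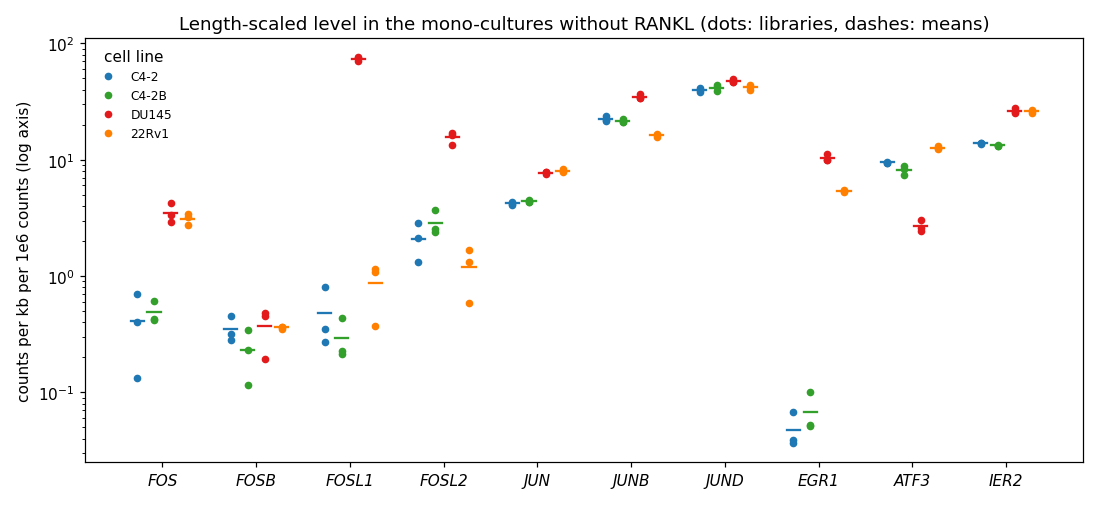
Level per transcript length (counts per kb per 1e6 counts, log axis) of the 10 genes in the 3 mono-cultures of each line without RANKL (dots) with their means (dashes), colored by cell line. JUND leads in 3 lines at about 40, FOSL1 leads in DU145 at 73.7, and EGR1 runs from 0.0479 in C4-2 to 10.3 in DU145.

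Levels per transcript length, counts per kb per 1e6 counts, allow genes to be set beside each other. On this scale JUND had the highest level of the 10 genes in C4-2 (39.6 ± 1.41, SD, n = 3), C4-2B (41.7 ± 2.61) and 22Rv1 (42 ± 2.22). In DU145 FOSL1 came first at 73.7 ± 3.1, ahead of JUND at 47.7 ± 1.61 and JUNB at 34.9 ± 1.5. EGR1 was last in C4-2 and C4-2B, at 0.0479 ± 0.0176 and 0.0682 ± 0.0282, and sixth in DU145 and 22Rv1, at 10.3 ± 0.676 and 5.4 ± 0.121. Neighbors among FOS, FOSB and FOSL1 in C4-2 and C4-2B, FOS and ATF3 in DU145, and FOSL2 and FOSL1 in 22Rv1 overlapped in their replicates.

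With RAW264.7 cells, FOS was the only one of the 10 genes to lie higher in both co-cultures than in both RANKL mono-cultures of its line in all 4 lines. FOS (chromosome 14, 75278774 to 75282230, plus strand, GRCh38) went from 0.77 and 0.911 CPM to 6.67 and 3.11 CPM in C4-2, and from 0.39 and 0.503 CPM to 8.57 and 6.45 CPM in C4-2B. In DU145 it went from 3.74 and 3.66 CPM to 7.62 and 6.04 CPM. In 22Rv1 it went from 6.89 and 4.35 CPM to 8.97 and 8.08 CPM. In the co-cultures C4-2B overlapped both LPCa lines, whereas C4-2 overlapped DU145 and lay below 22Rv1.

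The fitted log2 change of FOS was 2.56 ± 0.42 in C4-2, 4.09 ± 0.45 in C4-2B, 0.87 ± 0.31 in DU145 and 0.63 ± 0.31 in 22Rv1 (SE from edgeR), or 5.91-fold, 17.1-fold, 1.83-fold and 1.55-fold. Its smallest change over the lines, 0.63, ranked 1 among 11525 genes ordered in this way. Since the genes were chosen with this comparison known, the rank is a description. Of all genes, 0.134% had every co-culture above every RANKL mono-culture in all 4 lines.

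Counts behind these values were small. With RANKL alone FOS had 10.3 and 9.9 counts in C4-2 and 5.16 and 6.08 counts in C4-2B, the libraries behind its 5.91-fold and 17.1-fold changes. In the RANKL mono-cultures FOS reached at most 70 counts and in the RAW264.7 co-cultures at most 132, so it passed the minimum of 100 counts only through the latter. The counts were divided over 10 transcripts, of which FOS-201, the main protein-coding one, took 55.4% over all libraries. In the RAW264.7 co-cultures FOS-201 held 26.9 of 132 and 30.9 of 75.2 FOS counts in C4-2B. It held 36.2 of 93.1 and 11.5 of 37.2 in C4-2, so most FOS counts of these BPCa co-cultures lay in the other transcripts. In DU145 it held 79.5 of 96.9 and 54.3 of 87.3, and in 22Rv1 57.2 of 101 and 32.8 of 77.5. FOS-201 alone went from 0.415 and 0.574 CPM to 2.59 and 0.962 CPM in C4-2, from 0.321 and 0 to 1.74 and 2.65 CPM in C4-2B, from 3.16 and 2.52 to 6.25 and 3.75 CPM in DU145 and from 3.17 and 3.03 to 5.06 and 3.42 CPM in 22Rv1. The groups of FOS-201 did not overlap in any line, although in 22Rv1 the lower co-culture held 32.8 counts against 32 and 33.4 in the RANKL mono-cultures. For this transcript every BPCa co-culture lay below every LPCa co-culture.

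**Figure D3:**
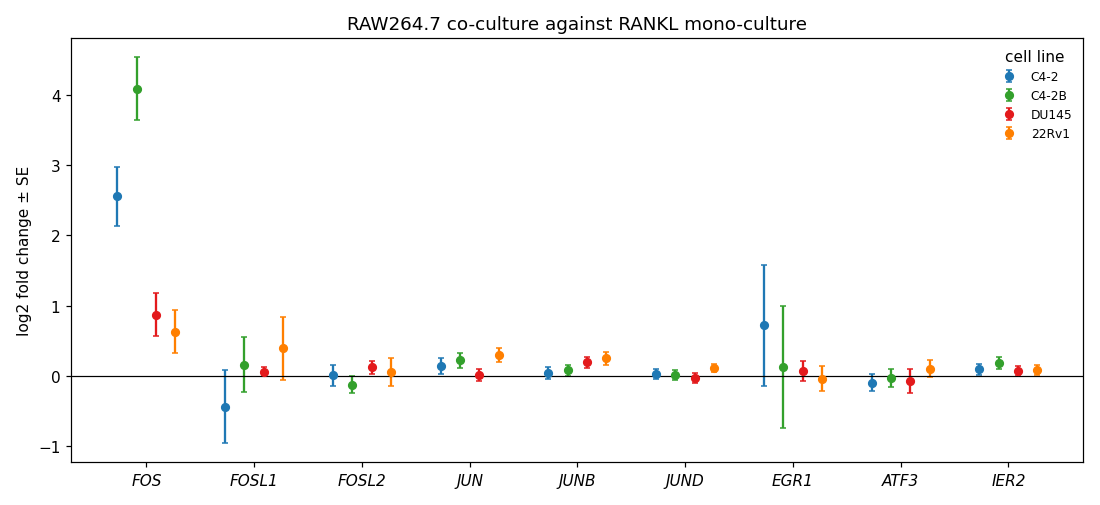
Log2 fold change (vertical axis, ± SE from the edgeR fit of 16 libraries) of 9 genes in RAW264.7 co-culture against RANKL mono-culture, by cell line (color). FOS stands at 2.56 in C4-2 and 4.09 in C4-2B, while most other points lie within 0.5 of 0 and those of EGR1 and FOSL1 in the BPCa lines have wide errors.

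Of the 9 genes fitted in 4 lines, with FOSB left out for its low counts, FOS gave the only 2 of 36 gene and line combinations with more than a 2-fold increase, in C4-2 and C4-2B, where 1.29% and 0.824% of all 11525 genes exceeded that fold. In DU145 and 22Rv1 none of the 9 genes did, against 0.894% and 0.738% of all genes. The median log2 change of the 9 genes was 0.11 over the 4 lines, against 0.00 for all genes. JUN changed by 0.16 ± 0.05, JUNB by 0.14 ± 0.04 and IER2 by 0.11 ± 0.04 on the log2 scale, JUND, FOSL2, FOSL1 and ATF3 by between -0.03 and 0.04, and EGR1 by 0.22 ± 0.31 (SE). For JUNB the levels did not overlap in DU145, at 50.1 and 45.8 CPM with RANKL alone and 55.1 and 55.4 CPM with RAW264.7 cells, or in 22Rv1, at 34.9 and 35.7 against 39.8 and 42 CPM. In C4-2 they overlapped, at 45.8 and 48.6 against 51.7 and 45.2 CPM.

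By line, 2 of the 10 genes in C4-2 (FOS and FOSB), 3 in C4-2B (FOS, JUN and IER2), 5 in DU145 (FOS, FOSB, FOSL2, JUNB and IER2) and 3 in 22Rv1 (FOS, JUN and JUNB) had both co-cultures above both RANKL mono-cultures. The corresponding shares of all 13446 genes were 18.6%, 16.4%, 20.1% and 11.1%. ATF3 in C4-2 was the only gene with both co-cultures below, as were 17.0% of all genes there. FOSB rested on at most 30 counts per library and went from 0.734 and 0.262 CPM to 0.997 and 0.797 CPM in C4-2, and from 0.319 and 0.535 CPM to 1.01 and 0.719 CPM in DU145. EGR1 overlapped in all 4 lines, and in DU145, where it was highest, it was at 57 and 52.1 CPM with RANKL alone and 53.9 and 61.6 CPM with RAW264.7 cells. The summed level of 13 macrophage and osteoclast markers was 22.8 to 23.4 CPM in C4-2 with RAW264.7 cells and 23.8 to 25.2 CPM with RANKL alone, and in C4-2B 23.2 to 24 against 23.5 to 23.8 CPM. In DU145 it was 63.1 to 67.3 against 64.7 to 67.1 CPM, and in 22Rv1 11.8 to 15 against 13 to 15.3 CPM.

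None of 83 other listed genes tested in this comparison passed an adjusted p under 0.05 by edgeR over the 4 lines, and 11 had an unadjusted p under 0.05, as had 869 of all 11525 genes. These comprised 18 other immediate early genes, 16 other AP-1 and ATF subunits, 20 genes of the kinase and serum response factor route, 18 MAP kinase feedback genes and 13 AP-1 target genes, with DUSP1 and IER3 in more than 1 list. In all, 0.0434% of 11525 genes were called higher and 0.0781% lower. Among immediate early genes, ZFP36, which encodes a protein that destabilizes mRNA and was chosen for naming after its value was seen, had the highest estimate at 0.74 ± 0.21 (adjusted p = 0.289). DUSP1, a phosphatase that switches off MAP kinases, had 0.30 ± 0.06 (adjusted p = 0.1).

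RANKL mono-cultures were also set beside mono-cultures without RANKL, again with no test, since the former entered the choice of genes. They held 10097501 to 13373083 counts, against 23932472 to 36719047 without RANKL, so RANKL and depth cannot be told apart here. FOS had log2 changes between -0.39 ± 0.31 in DU145 and 0.78 ± 0.50 in C4-2 (SE), and these were also the lines where its groups did not overlap. In DU145, FOSL1 was at 205 and 227 CPM with RANKL against 103 to 110 CPM without, and EGR1 was at 57 and 52.1 CPM against 30.3 to 33.6 CPM. JUN in DU145 was at 37.6 and 36.2 CPM against 26.1 to 27.3 CPM. In 22Rv1, JUND was at 142 and 149 CPM with RANKL against 74.1 to 83.3 CPM without. The groups of FOSL1, EGR1, JUN and JUND just given did not overlap, and the levels with RAW264.7 cells were close to those with RANKL alone, at 225 and 229 CPM for FOSL1 in DU145 and 147 and 159 CPM for JUND in 22Rv1. In DU145, 3 of the 10 genes lay wholly above the mono-cultures without RANKL (FOSL1, JUN and EGR1), against 22.6% of all 13446 genes, and 5 wholly below (FOS, FOSL2, JUNB, JUND and IER2), against 43%. In 22Rv1, 4 lay above (FOSB, JUNB, JUND and IER2), against 22.6%, and 3 below (FOSL2, EGR1 and ATF3), against 32%. In C4-2, 3 lay above and 2 below, against 18.5% and 42.8%, and in C4-2B 3 above and 3 below, against 15.4% and 40.5%.

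Co-culture with MG63 cells and no RANKL addresses how OB-like cells alter the PCa cells. These libraries are not those of the comparison the genes were chosen with, but other results of the data were known by then. JUNB rose in all 4 lines, FOS rose in 3, JUN, EGR1 and JUND rose in some, and ATF3 fell in 22Rv1. Averaged over the lines, 5 of the 9 genes tested rose (FOS, JUN, JUNB, JUND and EGR1) and 1 fell (ATF3) at an adjusted p under 0.05, where 18.1% of all 13437 genes rose and 19.3% fell. The median log2 change of the 9 genes was 0.28, against -0.02 for all genes. FOSL1 (0.45 ± 0.20, adjusted p = 0.0892), FOSL2 (-0.09 ± 0.06, adjusted p = 0.283) and IER2 (0.19 ± 0.11, adjusted p = 0.198) did not pass. By line, 4 genes rose in C4-2 (FOS, JUN, JUNB and EGR1), against 5.30% of all genes, and 2 in C4-2B (FOS and JUNB), against 3.52%. In 22Rv1 2 rose (JUNB and JUND), against 11.2%, and 1 fell (ATF3), against 9.18%. The size of the change differed among the lines for 4 of the 9 genes, as it did for 14.5% of all genes.

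JUNB, which encodes a JUN protein often held to restrain JUN and which lies on chromosome 19 from 12791496 to 12793315 (plus strand, GRCh38), has a single exon and a single transcript in the table. It went from 42.9, 39.7 and 39 CPM to 84 and 80.8 CPM in C4-2, and from 38.4, 38.5 and 40.7 CPM to 67.9 and 63.2 CPM in C4-2B. It went from 60.4, 65.2 and 60.1 CPM to 73.5 and 83.7 CPM in DU145, and from 30.8, 30.4 and 29.3 CPM to 53.7 and 56.6 CPM in 22Rv1. No co-culture overlapped the mono-cultures of its line, a pattern shared over the 4 lines by 2.10% of 13446 genes.

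The log2 change of JUNB was 1.13 ± 0.07 in C4-2 (edgeR, adjusted p = 3.38e-08), 0.80 ± 0.07 in C4-2B (adjusted p = 3.13e-06), 0.41 ± 0.07 in DU145 (adjusted p = 0.000601) and 0.98 ± 0.07 in 22Rv1 (adjusted p = 2.21e-07). It was 0.83 ± 0.03 on average (adjusted p = 3.55e-10). Against the mono-cultures with RANKL the average was 0.66 ± 0.04, with 0.82 ± 0.09 in C4-2, 0.41 ± 0.09 in C4-2B and 0.71 ± 0.09 in both LPCa lines (SE), and in no line did the co-cultures overlap them. The size of the change with MG63 cells differed among the lines (adjusted p = 0.000669 in edgeR's test of all 4 line effects).

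FOS went from 0.255 to 0.639 CPM in C4-2 mono-culture to 2.26 and 1.33 CPM with MG63 cells, and from 0.472 to 0.759 CPM to 1.91 and 1.54 CPM in C4-2B. In DU145 it went from 4.59 to 6.34 CPM to 7.67 and 10.9 CPM. In 22Rv1 the values overlapped, at 4.16 to 4.59 CPM against 4.55 and 7.21 CPM. The log2 change was 1.89 ± 0.39 in C4-2 (adjusted p = 0.00504), 1.64 ± 0.39 in C4-2B (adjusted p = 0.0153), 0.90 ± 0.28 in DU145 (adjusted p = 0.0254) and 0.54 ± 0.29 in 22Rv1 (adjusted p = 0.214). The difference among the lines did not pass (adjusted p = 0.142), and the average was 1.24 ± 0.17 (adjusted p = 4.8e-05). Against RANKL mono-cultures the average was 1.12 ± 0.20 (SE), with log2 differences of 1.94 ± 0.50 in C4-2B, 1.32 ± 0.33 in DU145 and 0.12 ± 0.32 in 22Rv1, and a 2.14-fold higher level in C4-2 (SE of 0.44 on the log2 scale).

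The transcript FOS-201 alone stood at 0 to 0.203 CPM in C4-2 mono-culture and at 1.05 and 0.805 CPM with MG63 cells, and at 0.227 to 0.395 CPM against 1.04 and 0.464 CPM in C4-2B. In 22Rv1 it was at 2.68 to 3.07 CPM against 3.63 and 3.94 CPM. In DU145 it was at 2.89 to 4.15 CPM in mono-culture and 2.59 and 2.96 CPM with MG63 cells, so the higher FOS level of the DU145 co-cultures lay in the other transcripts.

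In the BPCa lines FOS was higher with RAW264.7 cells, at 3.11 to 8.57 CPM over C4-2 and C4-2B, than with MG63 cells, at 1.33 to 2.26 CPM. In 22Rv1 it was likewise higher with RAW264.7 cells, at 8.97 and 8.08 CPM against 4.55 and 7.21 CPM, and only in DU145 was the order the other way, with 7.62 and 6.04 CPM against 7.67 and 10.9 CPM. JUNB, in contrast, was higher with MG63 cells than with RAW264.7 cells in every library of every line. The RAW264.7 co-cultures also held RANKL, so the partner and RANKL cannot be told apart in these levels, and no test was made of them.

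**Figure D4:**
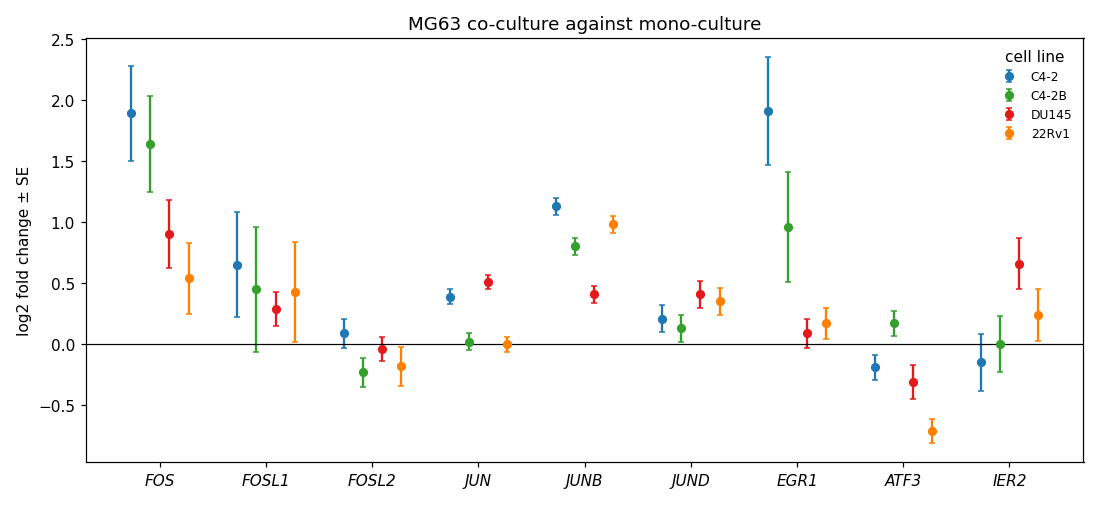
Log2 fold change (vertical axis, ± SE from the edgeR fit of 20 libraries) of 9 genes in MG63 co-culture against mono-culture without RANKL, by cell line (color). JUNB lies between 0.41 and 1.13 in all lines with small errors, FOS between 0.54 and 1.89, and ATF3 reaches -0.71 in 22Rv1.

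EGR1 rose in C4-2, from 0.114 to 0.214 CPM in mono-culture to 0.519 and 0.61 CPM (log2 1.91 ± 0.44, edgeR, adjusted p = 0.00982). The levels in DU145 (30.3 to 33.6 against 33.6 and 30.3 CPM) and 22Rv1 (16.9 to 17.7 against 16.9 and 19.1 CPM) overlapped, and the change differed among the lines (adjusted p = 0.0393). The average of 0.78 ± 0.17 (adjusted p = 0.00167) thus rested on lines where EGR1 was near the detection limit, and against RANKL mono-cultures it was 0.37 ± 0.19. Without replicate 2 of C4-2B with MG63 cells the average was 0.57 and no longer passed (adjusted p = 0.113).

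JUN rose in C4-2, from 14.3 to 15.4 CPM to 18.1 and 18 CPM (log2 0.39 ± 0.06, adjusted p = 0.000829), and in DU145, from 26.1 to 27.3 CPM to 37.3 and 35 CPM (0.51 ± 0.06, adjusted p = 5.69e-05). The estimates were 0.02 ± 0.07 in C4-2B and 0.00 ± 0.06 in 22Rv1, and the change differed among the lines (edgeR, adjusted p = 0.00134). Against RANKL mono-cultures, in which JUN was already 36.2 and 37.6 CPM in DU145, the average was 0.16 ± 0.05. By line that estimate was 0.42 ± 0.10 in C4-2, 0.27 ± 0.10 in C4-2B and -0.03 ± 0.10 in both LPCa lines, and in DU145 it was -0.79 ± 0.14 for FOSL1 and -0.77 ± 0.15 for EGR1.

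ATF3 fell in 22Rv1, from 24.7, 23.6 and 25.1 CPM to 14.1 and 13.7 CPM (log2 -0.71 ± 0.10, edgeR, adjusted p = 0.000172). Against RANKL mono-cultures the difference was -0.52 ± 0.13 in 22Rv1 and -0.23 ± 0.07 on average. The estimates were -0.19 ± 0.10 in C4-2, -0.31 ± 0.14 in DU145 and 0.17 ± 0.10 in C4-2B, none past the threshold, and the change differed among the lines (edgeR, adjusted p = 0.00443). JUND rose on average by 0.28 ± 0.06 (adjusted p = 0.00141), with 0.41 ± 0.11 in DU145 (adjusted p = 0.013) and 0.35 ± 0.11 in 22Rv1 (adjusted p = 0.0396). Against RANKL mono-cultures its average was 0.01 ± 0.07, made up of 0.62 ± 0.14 in DU145, -0.58 ± 0.14 in 22Rv1, 0.01 ± 0.14 in C4-2 and 0.00 ± 0.14 in C4-2B.

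In DU145, 5 of 9 genes were called higher with MG63 cells (FOS, JUN, JUNB, JUND and IER2), against 15.2% of all genes, but the 2 co-cultures differed. Replicate 2 had 124 CPM of IER2 and 130 CPM of JUND, whereas replicate 1 had 50.3 and 88.1 CPM and the mono-cultures 55.5 to 60.6 and 84 to 89.2 CPM. Of the 1296 counts of IER2 in replicate 2, 697 belonged to the transcript IER2-202, which held between 0 and 127 counts in every other library. Without IER2-202 the level of IER2 in that library was 57.5 CPM. When replicate 2 was left out, a choice made after seeing these values, the lone co-culture was assumed to vary like the other groups, and 3 genes were called higher (FOSL1, JUN and JUNB), against 7.21% of all 13432 genes in that fit. FOS (log2 0.64 ± 0.35, adjusted p = 0.239), JUND (0.11 ± 0.08, adjusted p = 0.415) and IER2 (-0.12 ± 0.07, adjusted p = 0.292) were not called.

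**Figure D5:**
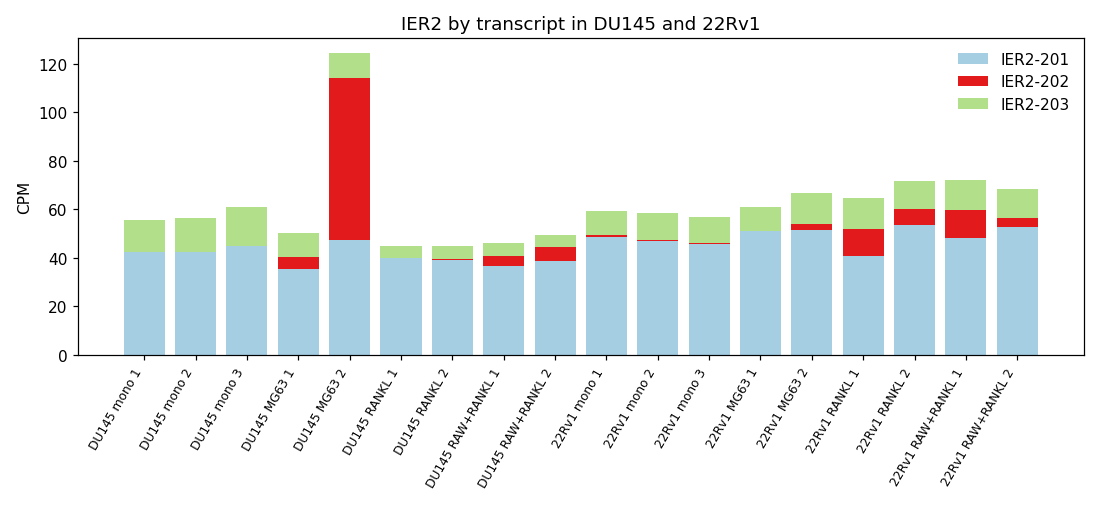
Level of IER2 in CPM (vertical axis) divided by transcript (stacked colors) in each library of DU145 and 22Rv1 (horizontal axis; the number is the replicate, RAW+RANKL is the co-culture with RAW264.7 cells and RANKL). Replicate 2 of DU145 with MG63 cells stands at 124 CPM because of IER2-202, and its IER2-201 is at a level like that of its neighbors.

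The other genes of the route around AP-1 were described by lists that held none of the 10. Their counts with MG63 cells stand beside the 18.1% of all genes that rose and the 19.3% that fell, and no test compared the lists with each other or with all genes. These shares are from the main fit. With scaling to the library total alone, the median log2 change of all genes was -0.11 and 23.6% of called genes were higher, so counts under it lean lower for all genes. The MAP kinase feedback genes were the first list. They encode phosphatases and inhibitors that damp the kinases feeding AP-1, and also targets of ERK such as ETV4. Of 18 tested, 11 rose and 7 did not pass, with a median log2 change of 0.24 against -0.02 for all genes. With scaling to the library total alone 8 rose, and against RANKL mono-cultures 4 rose, where 6.22% of 11712 genes rose. By line, 4 rose and 2 fell in C4-2, against 5.30% and 4.79% of all genes, and 1 rose and 0 fell in C4-2B, against 3.52% and 3.89%. In DU145 6 rose and 1 fell, against 15.2% and 15.3%, and in 22Rv1 7 rose and 0 fell, against 11.2% and 9.18%. With the RANKL control 3 rose and 6 fell in DU145, against 11.6% and 11.2%. IER3, an early response gene that modulates ERK signaling, rose by 0.96 ± 0.05 (edgeR, adjusted p = 2.61e-09), from 147 ± 1.25 CPM (n = 3) to 318 and 357 CPM in DU145. SPRY4 (0.84 ± 0.15, adjusted p = 0.000407), an inhibitor of the RAS route, and ETV4 (0.77 ± 0.20, adjusted p = 0.00613), an ETS factor downstream of ERK, followed. SPRY4 in 22Rv1 ran against its average, at 11.7 to 13.6 CPM in mono-culture and 9.52 and 8.1 CPM with MG63 cells.

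Among 22 other immediate early genes, 6 rose and 3 fell on average with MG63 cells. IER3 led, followed by ARC, a synaptic immediate early gene (0.59 ± 0.22, adjusted p = 0.0434). Those that fell were KLF4, an epithelial Krüppel-like factor (-0.50 ± 0.08, edgeR, adjusted p = 0.00023), NR4A1, an orphan nuclear receptor (-0.26 ± 0.06, adjusted p = 0.00307), and MCL1, a survival protein of the BCL2 family (-0.14 ± 0.03, adjusted p = 0.000603). The list as a whole had a median of -0.08, and with the library total alone 3 rose and 5 fell.

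Of 17 other AP-1 and ATF subunits and relatives, 3 rose and 5 fell. CEBPD, a CCAAT-binding factor of the acute phase, rose from 13.8 ± 0.752 CPM to 28.8 and 31.9 CPM in C4-2 and from 45.1 ± 1.45 CPM to 97.6 and 101 CPM in DU145 (n = 3 mono-cultures each), with a log2 average of 1.17 ± 0.05 (edgeR, adjusted p = 5.51e-10). BATF3 (0.93 ± 0.31, adjusted p = 0.0267) and CEBPB (0.56 ± 0.09, adjusted p = 0.00022) also rose. MAF fell by 1.14 on the log2 scale (SE 0.33, adjusted p = 0.0122), with DU145 at no more than 0.114 CPM in either group. The stress factors DDIT3 (-0.38 ± 0.05, adjusted p = 1.64e-05) and ATF4 (-0.26 ± 0.04, adjusted p = 8.86e-05) fell, as did ATF7 and ATF1. Under RLE scaling 3 fell in this list, and with the library total alone 8 fell.

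Of 21 kinases and serum response factor partners, 4 rose (ELK3, MAP2K2, RPS6KA1 and MAP2K7) and 5 fell (ELK4, ELK1, MAPK8 and MAP2K1 among them), the largest being ELK3 at 0.37 ± 0.10 (edgeR, adjusted p = 0.00809) and MAP2K2 at 0.35 ± 0.06 (adjusted p = 0.00024). SRF itself, at -0.04 ± 0.05 (adjusted p = 0.556), did not pass. With the library total alone, 3 rose and 12 fell.

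Of 12 AP-1 target genes tested, 3 rose and 2 fell. CXCL8, a neutrophil chemokine, went from 20.8, 20.9 and 18.3 CPM to 133 and 175 CPM in DU145, and from no more than 0.12 CPM to 2.04 and 2.09 CPM in C4-2. Its log2 average was 3.73 ± 0.30 (edgeR, adjusted p = 2.93e-07), with mono-cultures other than DU145 near or below the detection limit. S100A2 (2.3-fold, adjusted p = 0.00253) and HMOX1, the stress enzyme heme oxygenase (0.34 ± 0.04, adjusted p = 2.37e-05), rose, whereas PLAUR, the urokinase receptor (-0.53 ± 0.16, adjusted p = 0.017), and VEGFA (-0.46 ± 0.05, adjusted p = 6.28e-06) fell. S100A2 stood at 60.4 CPM in replicate 2 and 19 CPM in replicate 1 of DU145 with MG63 cells.

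The summed level of 12 fibroblast and osteoblast markers chosen for MG63 cells was 48.5 to 51.5 CPM in 22Rv1 mono-culture and 67.1 to 68.7 CPM with MG63 cells, and 6.59 to 8.69 against 7.37 to 13.8 CPM in DU145. In C4-2 it was 6.59 to 7.41 against 5.35 to 9.58 CPM, and in C4-2B 5.87 to 6.14 against 4.79 to 5.99 CPM. POSTN, 1 of these markers, was at 0 in both groups of C4-2B and DU145. In 22Rv1 it was at 0 in mono-culture but not in all libraries with MG63 cells, and in C4-2 the reverse held. The number of markers at 0 in all libraries of a group was 0 in C4-2 mono-culture and in 22Rv1 with MG63 cells. It was highest, at 4, in DU145 with MG63 cells. The part of these levels in the changes above was not tested.

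The same lists were also compared between the phenotypes in mono-culture. Of the MAP kinase feedback genes 13 were lower and 5 higher in BPCa than in LPCa, with a median log2 difference of -1.54, and of the other immediate early genes 16 were lower and 5 higher (median -1.60). Of the AP-1 target genes 9 were lower and 1 higher (median -4.86), and of the kinase route 5 were lower and 7 higher (median 0.06). The median of the AP-1 target genes was -6.90 for C4-2 and -7.93 for C4-2B against DU145, and -0.13 and -1.88 against 22Rv1. ETV4, DUSP6 and ETV5, targets of ERK signaling, had log2 differences of -5.81, -4.41 and -4.31, and TIMP1, CD44 and PLAU, an inhibitor of matrix proteases, a hyaluronan receptor and the protease urokinase, had -9.63, -8.14 and -6.11. CCN2, a matricellular protein gene, had -7.67. Of the other AP-1 and ATF subunits 6 were higher and 8 lower, and MAF was among the former (3.12) and BATF3 among the latter (-4.53). Over all genes 40.4% were lower and 39.4% higher.

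The 10 genes did not share a single profile over the cultures. After log2(CPM + 1) was centered within each line, the Pearson r of each gene with the mean of the others over 36 libraries ran from -0.422 for ATF3 to 0.454 for JUN, with 0.319 for FOS and 0.31 for JUNB, leaving out FOSB, which had a mean level below 1 CPM. The genes outside the group with the profile most like the mean of these 9 were HSD17B4 (r = 0.686), ZNF865 (0.682), RPS15 (0.675), RPL7AP30 (0.667) and TUBB2A (0.661), of 13935 ranked. RPS15 and RPL7AP30 are a ribosomal protein gene and a ribosomal protein pseudogene, which share sequence with other copies. The libraries of a culture share depth, and these values are a description.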

How the data were processed

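RNA of 36 cultures of 4 PCa lines was sequenced by the authors from strand-specific poly(A) libraries on a DNBSEQ-G400. The authors deposited estimated counts per transcript from kallisto, and the submitters' processing notes also name FastQC and the build hg19. Each transcript was used once (2491 lines belonged to transcripts listed more than once), the estimated counts were summed per symbol and rounded for the tests, and counts without a symbol (0.526 to 0.764% per library) stayed in the totals. Coordinates come from GENCODE 29 (GRCh38), matched by transcript ID, and promoters from RefSeq (GRCh38.p14).

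Genes that reached 100 counts in 1 or more tested libraries were fitted in edgeR 4.0.16 (R 4.3.3) with TMM scaling, the quasi-likelihood test and Benjamini-Hochberg adjustment over all genes tested, at a threshold of 0.05. The 20 libraries without RANKL (13437 genes) and the 16 with RANKL (11525 genes) were fitted separately, with 1 mean per line and culture. Errors of fold changes are approximate SE, the absolute log2 change divided by the square root of edgeR's F statistic. The fits were tested on simulated data. Alternatives used DESeq2 1.42.0, other scalings and filters, another control, and fits without single libraries. Tables and figures were made in Python 3.11.15 with numpy 2.4.6, pandas 2.3.3 and matplotlib 3.10.9.

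The 10 genes and the lists of other genes were chosen with earlier results of these data known. Named genes outside the 10 were up to 3 of each list with the largest called change per comparison, genes behind a count of 5 or fewer, the 5 most alike in profile, and markers at 0 or at high levels. Some genes that this rule names are not reported here. Replicate numbers did not pair the samples: deviations of 8 same-numbered pairs correlated at -0.00335 on average (-0.0363 to 0.0387) for MG63 and mono-culture, and at 0.0286 (-0.067 to 0.146) for RAW264.7 and RANKL mono-culture.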

Additional observations from a re-analysis of the deposited data

Results flagged for a closer look

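The change with MG63 cells differed among the 4 lines for 4 of the 9 genes tested, by edgeR's quasi-likelihood test that the 4 line effects are equal, where 14.5% of 13437 genes passed. For JUNB (adjusted p = 0.000669) the log2 change ran from 0.41 in DU145 to 1.13 in C4-2. For JUN (adjusted p = 0.00134) it was 0.51 in DU145 and 0.39 in C4-2 against 0.02 in C4-2B and 0.00 in 22Rv1. For ATF3 (adjusted p = 0.00443) it was -0.71 in 22Rv1 and 0.17 in C4-2B. For EGR1 (adjusted p = 0.0393) it was 1.91 in C4-2, with fewer than 1 CPM in every library, and 0.09 in DU145. These changes are against mono-cultures of greater depth. Against the mono-cultures with RANKL, of like depth, the change of JUNB ran from 0.41 in C4-2B to 0.82 in C4-2, with 0.71 in DU145, and that of JUN was -0.03 in DU145 and 0.42 in C4-2, so DU145 took another place among the lines for both genes. Those libraries entered the choice of genes, and the values are a description.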

How the results depend on the processing

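With mono-cultures with RANKL as the control, which share the depth of the co-cultures, 22 listed genes in place of 40 were called with MG63 cells. Of all genes, 12.8% in place of 37.5% were called. That control entered the choice of the 10 genes, so no calls of them against it are given. The averages of JUN, JUND, EGR1 and ATF3 were 0.16, 0.01, 0.37 and -0.23 with it on the log2 scale, beside 0.23, 0.28, 0.78 and -0.26 without RANKL. Requiring a fold above 2 and an unadjusted p under 0.05 left 1 gene (FOS) with MG63 cells, and 3 in place of 7 between BPCa and LPCa. RLE scaling, the library total alone, no filter and DESeq2 gave 6, 7, 6 and 7 genes with MG63 cells and 7, 8, 7 and 7 between the phenotypes. The library total alone moved the median log2 change of all genes with MG63 cells to -0.11, and the share of higher among called genes from 48.4% to 23.6% (54.8% with RLE). Under it FOSL2 (-0.18) and JUNB between the phenotypes (-0.12) also passed, and FOSL1 (0.48) passed by DESeq2. The replicate block gave 6 genes with MG63 cells, 7 between the phenotypes, 3 in place of 4 with differing effects and 35 listed genes.

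Leaving out each library in turn gave 5 to 8 genes with MG63 cells, 7 in every case between the phenotypes, 3 to 6 with differing effects, 33 to 49 listed genes, 0 listed genes with RAW264.7 cells, and 2 to 3 of 36 gene and line combinations over 2-fold higher with RAW264.7 cells. Without replicate 2 of DU145 with MG63 cells, chosen after seeing the data, the count in DU145 was 3 in place of 5. EGR1 lost its call without replicate 2 of C4-2B with MG63 cells (0.57). FOSL1 passed without replicate 3 of C4-2 or replicate 1 of C4-2B mono-culture or replicate 2 of DU145 with MG63 cells (0.54, 0.55 and 0.50), and FOSL2 (-0.15) and IER2 (0.31) passed without replicate 1 of the latter. No called average over the lines or between the phenotypes reversed its direction. In single lines, IER2 in DU145 went from 0.66 to -0.12 without replicate 2 with MG63 cells, and JUND in 22Rv1 from 0.35 to -0.58 with the RANKL control. FOSB and, in the BPCa lines, EGR1, FOSL1 and FOS lie near the limit that depth sets.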
